A study of Mus musculus with 36 samples.

Results

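The comparison described here is between kidneys of postnatal day 7 (P7) mice that lack Pkd1 in the collecting duct and kidneys of wild-type littermates, measured by small RNA sequencing. It rests on 6 of the 36 libraries of the series, 3 knockout (KO) and 3 wild-type (WT), picked by their labels. Of 1915 mature miRNAs in the count table, 706 had at least 10 reads in at least 3 of the 18 libraries of the Pkd1 model and were tested. KO mice carried homozygous floxed Pkd1 alleles (exons 2 to 5) and the HoxB7-Cre transgene, and WT mice carried the same floxed alleles without Cre, both on a C57BL/6 background. HoxB7-Cre acts in the ureteric bud lineage, which forms the collecting duct, whereas the RNA came from whole kidney, so the deleted cells are a part of what was sequenced. The series also holds Pkd1 kidneys at P1 and P3 and a Pkd2 model at the same 3 ages, used here for context. The sex and litter of each mouse were not given in the sources used here, and Pkd1 mRNA was not analysed here, so the deletion itself was not checked in these libraries.

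Pkd1 encodes polycystin-1, a large membrane protein of the primary cilium that is mutated in autosomal dominant polycystic kidney disease, in which fluid-filled cysts grow from kidney tubules. A miRNA is cut from a hairpin precursor that can yield a mature strand from either arm (5p or 3p), is loaded into an Argonaute protein and lowers the output of mRNAs that pair with its seed, bases 2 to 8. One hairpin arm usually accumulates far above the other, and neighbouring hairpins are often cut from a single transcript, so that arms and cluster members share a source.

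The sequences that carry the main results are those of the miR-21a arms and of the miR-183, miR-96 and miR-182 cluster. They are given as RefSeq records them on GRCm38.p6, 5′ to 3′, with the seed in capitals.

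miR-21a-5p: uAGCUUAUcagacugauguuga

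miR-21a-3p: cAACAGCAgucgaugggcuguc

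miR-183-5p: uAUGGCACugguagaauucacu

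miR-96-5p: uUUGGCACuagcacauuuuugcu

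miR-182-5p: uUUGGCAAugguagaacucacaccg

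miR-183-3p: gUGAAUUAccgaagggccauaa

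The miR-21a hairpin lies at chr11:86584067-86584158 on the minus strand, inside an annotated exon of Vmp1 on the same strand. The miR-183 hairpin (chr6:30169668-30169737), the miR-96 hairpin (chr6:30169446-30169551) and the miR-182 hairpin (chr6:30165918-30165992) lie on the minus strand of chromosome 6 with no other annotated gene over them. The seeds of miR-183-5p, miR-96-5p and miR-182-5p resemble but do not equal each other, so they form no shared-seed group.

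The P7 libraries held 14566003 to 24304634 miRNA reads, and 820 to 1029 miRNAs had a read in each. The miR-10 pair (miR-10a-5p plus miR-10b-5p) took 79.0%, 67.9% and 77.5% of the reads in KO replicates 1 to 3 and 79.9%, 81.0% and 57.9% in WT replicates 1 to 3, so WT replicate 3 stood apart. The mean share was 74.8% ± 6.01 (SD, n = 3) in KO and 72.9% ± 13.02 (SD, n = 3) in WT, a difference of 1.88 percentage points (two-sided exact permutation test, p = 1, where 0.1 is the smallest p that 3 against 3 can give). The sign of this difference turned without WT replicate 3 (-5.63 points) and without KO replicate 1 (-0.203 points). Levels are therefore given as counts per 1000000 reads (CPM) scaled by TMM, a factor that sets the bulk of miRNAs level between libraries. For several results that WT replicate 3 moved, values are given with and without it. The absence of such values does not mean that a result was unmoved.

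At P7, 3 of 706 tested miRNAs passed a Benjamini-Hochberg adjusted p of 0.05 in the edgeR quasi-likelihood fit, or 0.425% of them, and all 3 were higher in KO kidneys: miR-21a-5p, miR-183-5p and miR-182-5p. By edgeR, no miRNA passed in the lower direction. At an unadjusted p under 0.05 there were 72 miRNAs (10.2%), against 35.3 that this threshold alone would give, with 42 higher (5.95%) and 30 lower (4.25%). The fitted values were centred, with a median log2 fold change of 0.01 and 357 of 706 above 0 (50.6%). In whole-kidney RNA, a change in the number of cells of a type cannot be told apart from a change in RNA per cell. DESeq2 on the same counts called 16 miRNAs, these 3 among them. It added miR-21a-3p, miR-182-3p, miR-183-3p, miR-222-3p, miR-27a-5p, miR-341-5p and miR-503-5p as higher in KO, and 6 as lower, which were miR-148a-3p, miR-378a-3p, miR-378c, miR-383-5p, miR-450b-3p and miR-653-5p. Scaling by library totals instead of TMM left 0 calls and 22 miRNAs at an unadjusted p under 0.05, with a fitted log2 fold change of 1.38 for miR-21a-5p.

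**Figure D1:**
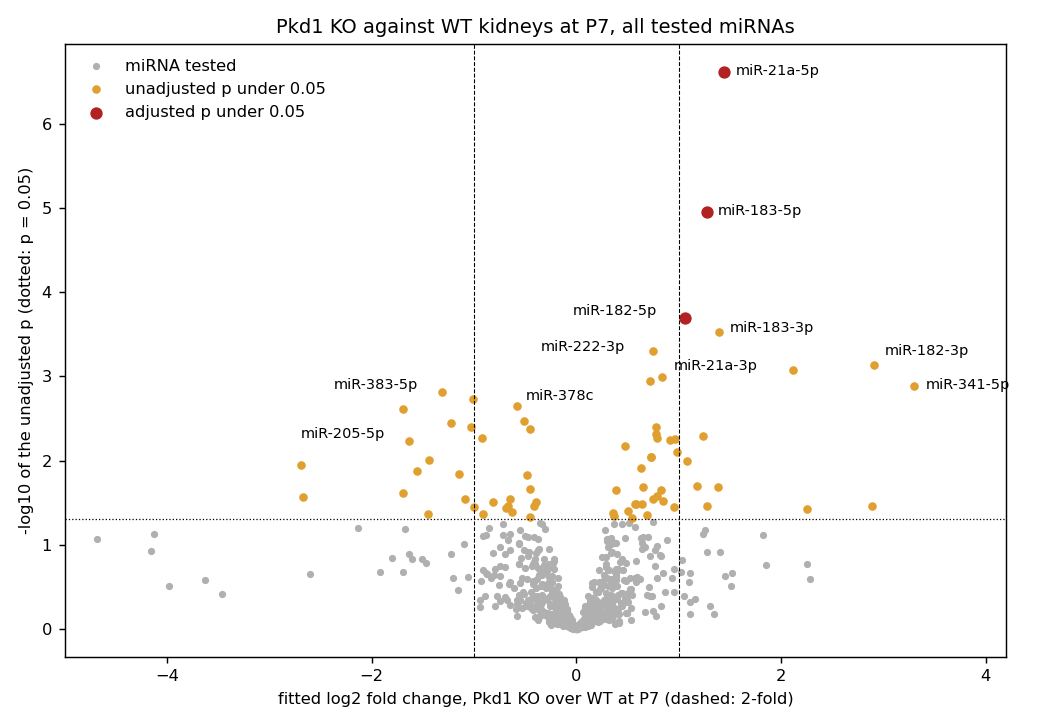
Each point is one of the 706 tested miRNAs, with the fitted log2 fold change of Pkd1 KO over WT at P7 on the x axis and -log10 of the unadjusted p on the y axis. Red marks the 3 miRNAs with an adjusted p under 0.05, all on the right, orange the others with an unadjusted p under 0.05, and dashed lines mark a 2-fold change.

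miR-21a-5p, a miRNA long studied for its rise in injured and proliferating tissue, was the 10th most abundant miRNA in these kidneys and had the smallest p of all 706. Its normalised CPM was 18500.4, 16962 and 16497 in KO replicates 1 to 3 and 6581, 6255 and 6209 in WT replicates 1 to 3. The 3 KO values lay close together and far above the 3 WT values, with no overlap. The mean level was 2.73-fold higher in KO (log2 fold change 1.45, SE 0.17 and adjusted p = 0.00017). It passed in every fit that left out a single P7 library, with log2 fold changes of 1.39 to 1.48.

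The other arm of the same hairpin, miR-21a-3p, was far less abundant. Its CPM was 186, 267 and 163 in KO and 30, 27.0 and 84.2 in WT. All KO values exceeded all WT values, and WT replicate 3 lay well above the other WT libraries. The log2 fold change was 2.12 (SE 0.51 and adjusted p = 0.0848), which missed the threshold. Without WT replicate 3 it was 2.81, with an adjusted p of 0.0271.

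The miR-183, miR-96 and miR-182 cluster encodes miRNAs abundant in sensory epithelia, and its 5 tested arms were all fitted higher in KO, none overlapping between groups, beside 16.3% of all tested miRNAs whose groups did not overlap. Its 5 log2 fold changes ran from 1.06 to 2.91 with a median of 1.28. The arms come from hairpins in a cluster, so they are not independent observations.

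miR-183-5p had a CPM of 1177, 1412 and 1089.9 in KO and 488, 505 and 527 in WT, with the WT libraries nearly level and each KO library above them. The log2 fold change was 1.28 (SE 0.20 and adjusted p = 0.00389), a 2.42-fold difference in means, and it stayed called without any single P7 library (adjusted p of 0.00844 to 0.0402). miR-182-5p, the most abundant member and the 12th most abundant miRNA, had a CPM of 12492, 13856 and 12433 in KO and 6559.6, 6447 and 5541 in WT. No KO library came near a WT library, and the mean was 2.09-fold higher in KO (log2 fold change 1.06, SE 0.22 and adjusted p = 0.0482). This call stood just inside the threshold and was lost in each of the 6 fits that left out a P7 library, with adjusted p values of 0.0708 to 0.232 and log2 fold changes of 0.95 to 1.11.

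The rarer members pointed the same way without passing. miR-183-3p, the minor arm of the miR-183 hairpin, had a CPM of 6.39, 10.7 and 6.85 in KO and 2.24, 3.61 and 3.26 in WT (log2 fold change 1.39, SE 0.30 and adjusted p = 0.0528). miR-182-3p had 5, 27 and 14 reads in KO and 0, 1 and 5 in WT, so its fitted log2 fold change of 2.91 (SE 0.69 and adjusted p = 0.0848) rests on few reads. miR-96-5p, named after its values were seen because it completes the cluster, had a CPM of 73.1, 48.0 and 54.9 in KO and 29.8, 33.1 and 11.1 in WT (log2 fold change 1.25, SE 0.64 and adjusted p = 0.547). Its WT replicate 3 was the lowest library, and without it the log2 fold change was 0.85.

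**Figure D2:**
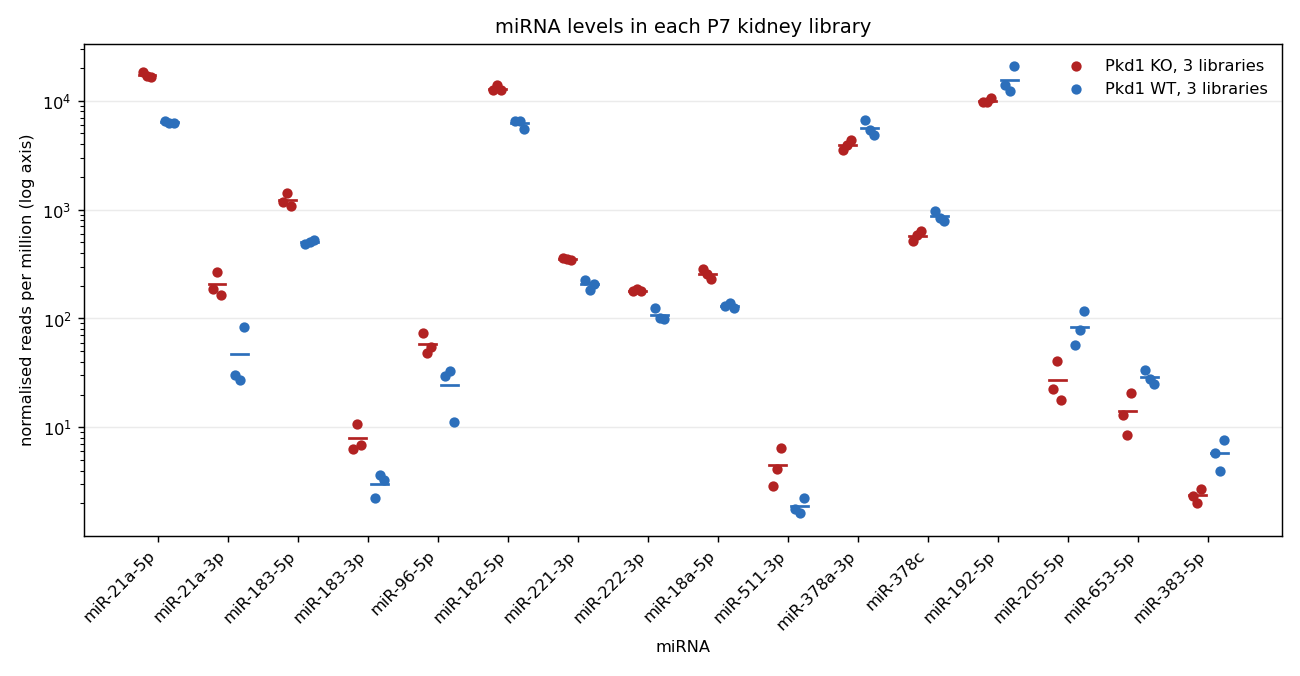
Normalised CPM (y axis, log scale) of 16 miRNAs in the 3 KO (red) and 3 WT (blue) P7 libraries, with bars at the group means. miR-21a-5p lies between 16497 and 18500.4 in KO and between 6209 and 6581 in WT, whereas the miRNAs on the right lie lower in KO.

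miR-221-3p and miR-222-3p, linked to passage through the cell cycle in many epithelia, share a seed and lie next to each other on chromosome X (chrX:19146294-19146388 and chrX:19146893-19146971, minus strand). Their sequences show the shared seed, GCUACAU, in capitals.

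miR-221-3p: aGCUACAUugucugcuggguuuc

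miR-222-3p: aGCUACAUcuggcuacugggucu

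miR-222-3p had a CPM of 177, 186 and 178 in KO and 123.9, 101 and 98.6 in WT (log2 fold change 0.75, SE 0.17 and adjusted p = 0.0705). miR-221-3p had a CPM of 357, 352 and 348 in KO and 226, 184 and 207 in WT (log2 fold change 0.78, SE 0.23 and adjusted p = 0.157). Each KO library exceeded each WT library for both, and the KO libraries were almost level. Of the 4 tested arms of the pair, 4 were fitted higher and 3 had an unadjusted p under 0.05, beside 5.95% of all tested miRNAs, but none passed the adjusted threshold. Without WT replicate 3, 3 of the 4 were fitted higher and 1 lower. In that fit 2 had an unadjusted p under 0.05, beside 97 of all 706 miRNAs in either direction. With library totals all 4 arms were fitted higher, none of them at an unadjusted p under 0.05. Their summed CPM was 560.3 to 577 in KO and 313 to 386 in WT.

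The miR-17/92 cluster, an oncogenic polycistron on chromosome 14 processed from Mir17hg, moved unevenly. Of its 12 tested arms, 5 were fitted lower and 7 higher, 5 of the latter at an unadjusted p under 0.05, beside 5.95% of all tested miRNAs. Without WT replicate 3, 7 were fitted lower and 5 higher, with 2 at that level, beside 97 of all 706 miRNAs in either direction. Library totals left 1, beside 22 of all 706. miR-18a-5p had a CPM of 283, 256 and 230.0 in KO and 129.3, 139.7 and 124.01 in WT (log2 fold change 0.97, SE 0.30 and adjusted p = 0.159). miR-17-5p had a CPM of 404, 435 and 430.6 in KO and 378.7, 346 and 267 in WT (log2 fold change 0.36, SE 0.16 and adjusted p = 0.448). The most abundant arm, miR-92a-3p, overlapped between the groups, at 2563, 3351 and 2964 in KO and 3463, 3249 and 2735 in WT. It also has a hairpin on chromosome X (chrX:52741838-52741928, minus strand), so its reads cannot be assigned to this cluster alone. The median log2 fold change of the 12 arms was 0.20 and turned to -0.06 without WT replicate 3. The 6 tested miRNAs with the miR-17 seed AAAGUGC were all fitted higher, by 0.01 to 0.36 on the log2 scale.

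The let-7 family, which builds up as tissues mature, had 9 tested members with the seed GAGGUAG, all fitted higher in KO by 0.09 to 0.48 on the log2 scale (median 0.29). The highest was let-7i-5p, at 4516, 5536 and 4465 CPM in KO and 3426, 3128 and 3870.5 in WT. These groups did not overlap, and the log2 fold change was 0.48 (SE 0.15 and adjusted p = 0.177). It was the only one of these 9 with an unadjusted p under 0.05, beside 10.2% of all tested miRNAs in either direction. Without WT replicate 3 there were 5 of the 9, beside 97 of all 706. With library totals 8 of the 9 were fitted higher, none at that level, with a median of 0.16. let-7j, which is not among the 9 and was named after its values were seen, had a log2 fold change of 0.39 (SE 0.15 and adjusted p = 0.364), again with no overlap.

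The miR-200 family, a set of miRNAs that holds epithelial identity by repressing Zeb1 and Zeb2, had 8 of 10 tested arms fitted higher and 2 lower (median 0.19, and 0.00 with library totals). miR-141-5p had a CPM of 12.5, 16.2 and 12.5 in KO and 10, 5.85 and 8.06 in WT (log2 fold change 0.79, adjusted p = 0.159), and miR-200c-5p a log2 fold change of 0.85 (adjusted p = 0.417). The most abundant arm, miR-200b-3p, had lower values in KO, at 1163, 1163 and 1158 against 1565, 1441 and 1299 in WT (log2 fold change -0.31, adjusted p = 0.546). Without WT replicate 3, 9 of the 10 arms were fitted higher and 1 lower, with a median of 0.44. In that fit 3 arms were higher and 1 lower at an unadjusted p under 0.05, beside 97 of all 706 miRNAs in either direction. The arms of this family thus did not all share a direction in any of these fits.

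Among the 30 miRNAs with an unadjusted p under 0.05 and lower values in KO, 3 were members of the miR-378 family. miR-378a-3p, the intronic miRNA of the metabolic coactivator gene Ppargc1b, had a CPM of 3551, 3932 and 4389 in KO and 6626, 5416 and 4872 in WT (log2 fold change -0.51, SE 0.15 and adjusted p = 0.157). miR-378c, at chr14:46954830-46954928 within an intron of Samd4 on the opposite strand, had a CPM of 512, 585 and 635 in KO and 969, 835 and 791 in WT (log2 fold change -0.58, SE 0.16 and adjusted p = 0.121). The groups did not overlap for either. All 5 tested family members were fitted lower, 3 with an unadjusted p under 0.05, beside 4.25% of all tested miRNAs, and the median log2 fold change was -0.48. Without WT replicate 3, miR-378a-3p and miR-378c passed with adjusted p values of 0.0289 and 0.0331. With library totals all 5 members were still fitted lower (median -0.50), but none had an unadjusted p under 0.05, beside 22 of all 706 miRNAs. Members of this family are near-identical in sequence, as the sequences of miR-378c and miR-378d show, so reads may be split between them.

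miR-378c: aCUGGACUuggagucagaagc

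miR-378d: aCUGGCCUuggagucagaaggu

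miR-192-5p, miR-194-5p and miR-204-5p are miRNAs of the proximal and other nephron tubules, which HoxB7-Cre does not target. The 8 tested arms of the tubule list (miR-192, miR-194, miR-215, miR-802 and miR-204) had 7 fitted lower and 1 higher in KO, a median log2 fold change of -0.39, and none with an unadjusted p under 0.05. miR-192-5p, the 9th most abundant miRNA, had a CPM of 9665, 9721 and 10527 in KO and 13908, 12365 and 20698 in WT (log2 fold change -0.65, SE 0.34 and adjusted p = 0.567). The groups did not overlap, and WT replicate 3 was the highest. Summed over the list, KO libraries held 10498 to 11370.0 CPM and WT libraries 13254 to 21933. The median of the list was -0.28 without WT replicate 3 and -0.51 with library totals.

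The miR-30 family, abundant in kidney epithelium and podocytes, had 9 of 11 tested arms fitted lower (median -0.32). Its leading member miR-30a-5p, the 3rd most abundant miRNA, overlapped between the groups, at 45149, 41118 and 57874 CPM in KO and 68897, 62559 and 48056 in WT (log2 fold change -0.32, adjusted p = 0.685). miR-30c-1-3p had a CPM of 26.6, 26.9 and 34 in KO and 58.7, 53.9 and 24.5 in WT (log2 fold change -0.64, adjusted p = 0.417). For both, WT replicate 3 was the lowest WT library. Without it, miR-30c-1-3p had a log2 fold change of -1 with an adjusted p of 0.0289, and the median of the family was -0.50. In that fit all 11 arms were fitted lower, 5 at an unadjusted p under 0.05, beside 97 of all 706 miRNAs in either direction. With library totals 10 of the 11 were fitted lower, none at that level.

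miR-205-5p, a miRNA of stratified and ductal epithelium (chr1:193507463-193507530, minus strand), had the lowest fitted value of the miRNAs listed with it, which were miR-31, miR-210 and miR-375. Its CPM was 22.4, 41.0 and 17.8 in KO and 57.4, 78.2 and 117 in WT, a mean 3.12-fold higher in WT with no overlap (log2 fold change -1.64, SE 0.51 and adjusted p = 0.16). The other arm, miR-205-3p, had 2, 5 and 3 reads in KO and 8, 5 and 14 in WT, and a log2 fold change of -1.45 (adjusted p = 0.448). Its sequence is shown because the Pkd2 model, described below, went the other way.

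miR-205-5p: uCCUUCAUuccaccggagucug

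A fold of at least 2 at an unadjusted p under 0.05 was met by 28 miRNAs (3.97%), 14 higher (1.98%) and 14 lower (1.98%), and 7 of the higher and 9 of the lower ones averaged under 10 reads a library. The remaining lower ones included miR-383-5p, at 2.35, 2.02 and 2.74 CPM in KO and 5.77, 3.99 and 7.73 in WT (log2 fold change -1.31, adjusted p = 0.0995). miR-450b-3p, from a cluster on chromosome X, had a CPM of 1.43, 1.97 and 1.92 in KO and 4, 3.36 and 3.46 in WT (log2 fold change -1.01, adjusted p = 0.109), whereas its abundant other arm miR-450b-5p overlapped between groups (log2 fold change -0.14). miR-653-5p, which lies in an intron of the calcitonin receptor gene Calcr, had a CPM of 13, 8.46 and 20.7 in KO and 33.6, 27.7 and 24.9 in WT (log2 fold change -1.03, adjusted p = 0.157). In the 3 cases each KO library lay below each WT library. Fitted values reached from -4.68 to 3.31, but only 4 of the 17 miRNAs beyond 4-fold averaged at least 10 reads.

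On the higher side of the same rule, miR-511-3p, from an intron of the macrophage mannose receptor gene Mrc1 (chr2:14261003-14261081), had a CPM of 2.87, 4.10 and 6.48 in KO and 1.77, 1.62 and 2.26 in WT (log2 fold change 1.24, SE 0.38 and adjusted p = 0.159). The leukocyte list gave no shared direction beside it, with 6 of 10 tested arms fitted higher, 4 lower and none with an unadjusted p under 0.05 (median 0.08, and -0.11 with library totals). Without WT replicate 3, 5 arms of the leukocyte list were fitted higher and 5 lower (median -0.002). The summed CPM of that list was 498 to 772 in KO and 516 to 733 in WT. The 2 arms of the myeloid miR-223 differed, the abundant miR-223-3p at 38.3, 20.9 and 27.7 CPM in KO and 30.5, 28.3 and 45.9 in WT, and the rare miR-223-5p at 12, 6.60 and 14 in KO and 3.30, 4.36 and 1.68 in WT (adjusted p = 0.567). The miR-223 arms, like miR-194-5p, miR-27a-5p, miR-341-5p, miR-132-3p, miR-148a-3p and miR-503-5p, were named after their values were seen.

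A few other miRNAs lay close to the threshold or crossed it under another setting. miR-503-5p had a CPM of 28.9, 33.3 and 31.2 in KO and 17.6, 14.6 and 20 in WT (log2 fold change 0.84, adjusted p = 0.0883). miR-27a-5p, the minor arm of its hairpin, had a CPM of 12.2, 17 and 17 in KO and 10.6, 9.72 and 7.82 in WT (log2 fold change 0.72, adjusted p = 0.0883). In both, each KO library lay above each WT library. miR-132-3p had a CPM of 115, 99.6 and 63.8 in KO and 40.2, 34.3 and 72.9 in WT, with an overlap at WT replicate 3 (log2 fold change 0.92, adjusted p = 0.159, and 1.28 with an adjusted p of 0.0326 without that library). miR-148a-3p had a CPM of 7282, 7116 and 8773 in KO and 11223, 11271 and 9159.9 in WT (log2 fold change -0.45, adjusted p = 0.157, and -0.59 with an adjusted p of 0.0326 without that library). In miR-132-3p and miR-148a-3p, WT replicate 3 was the WT library nearest to the KO level.

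The lists of other cell types held no called miRNA. The mesenchymal list (miR-199 and miR-214) had 6 of 6 arms fitted higher (median 0.16), the vascular list (miR-126, miR-143 and miR-145) 3 of 6 (median 0.00, and -0.03 with library totals), and the erythroid list (miR-451a, miR-144 and miR-486) 0 of 7 (median -0.11), none with an unadjusted p under 0.05. The smooth-muscle miR-143-3p, the 4th most abundant miRNA, ranged from 47279 to 66528 CPM in KO and from 37006 to 75306 in WT. The liver miRNA miR-122-5p, not a kidney product, was at 0.391, 0.0532 and 20.4 CPM in KO and 1.30, 7.72 and 0.624 in WT, highest in KO replicate 3. The neural list had 4 arms fitted higher and 4 lower (median 0.06), and without WT replicate 3 it had 2 higher and 6 lower (median -0.49). Muscle miRNAs summed to 28.5 to 43.8 CPM in KO and 30.5 to 51.7 in WT, and neural ones to 289 to 344 in KO and 264 to 287 in WT, with 1 of 8 neural arms, miR-129-5p, at an unadjusted p under 0.05 (log2 fold change -0.68). Their part in the results above was not tested. Kidney miRNAs (miR-10b-5p, miR-10a-5p, miR-30a-5p and miR-192-5p) stood among the 10 most abundant in these libraries, and the tissue was labelled whole kidney.

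**Figure D3:**
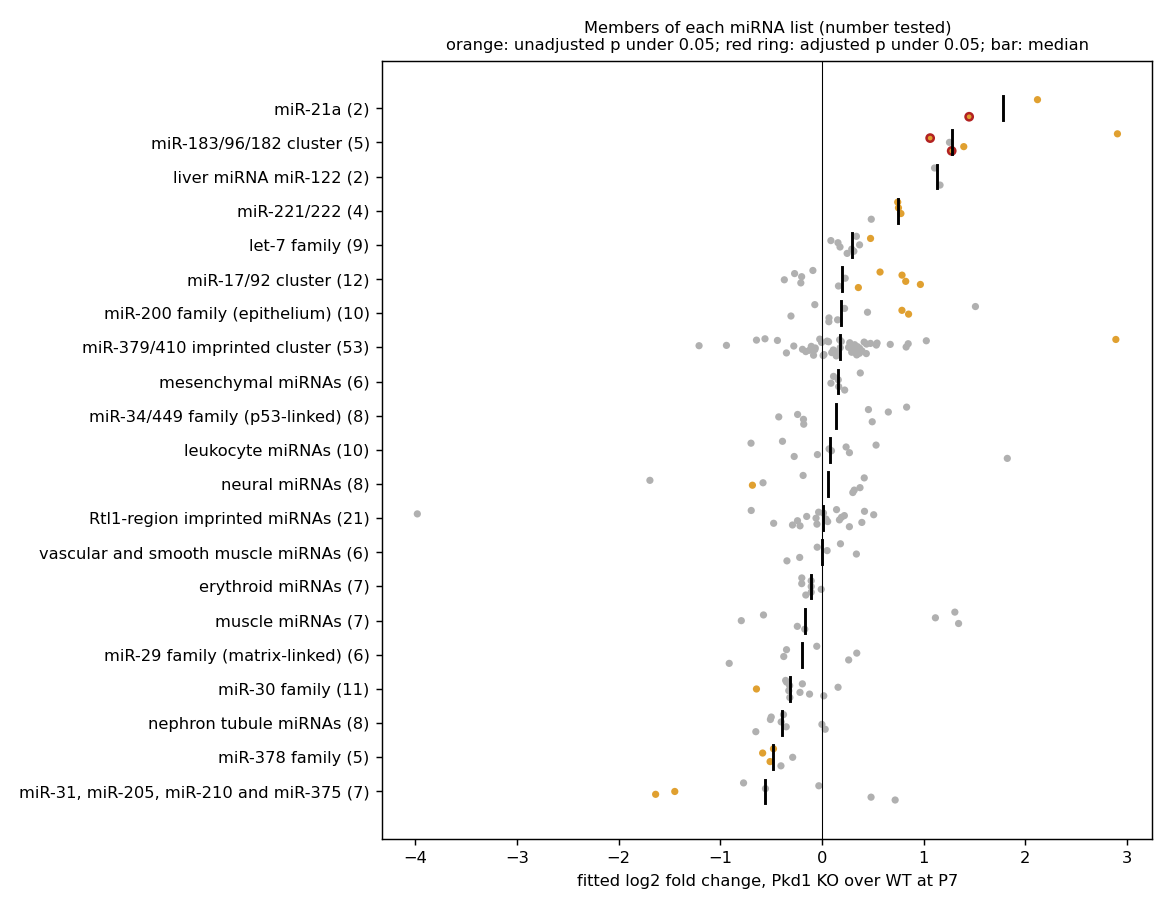
Fitted log2 fold change at P7 (x axis) of each tested member of 21 miRNA lists, ordered by their median (black bar), with the number tested in brackets. The miR-21a list and the list of the miR-183 cluster sit highest with medians of 1.78 and 1.28. The list of miR-31, miR-205, miR-210 and miR-375 has the lowest median (-0.56). The miR-378, tubule and miR-30 lists are among the others with a median below 0.

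The lists that gave no shared direction include the miR-34 and miR-449 family, of which miR-34 is induced by p53, with 4 arms higher and 4 lower (median 0.14), and the matrix-linked miR-29 family with 2 higher and 4 lower (median -0.20). The imprinted miRNAs of the Dlk1-Dio3 domain on chromosome 12 gave none either. Of the 53 tested arms of the cluster from miR-379 to miR-410, 36 were fitted higher and 17 lower (median 0.17, and -0.02 without WT replicate 3), and 1 had an unadjusted p under 0.05. Of the 21 arms near Rtl1, 11 were fitted higher and 10 lower, with a median of 0.01 that turned to -0.04 with library totals.

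Of the hairpins with both arms tested, 57.9% had arms fitted in the same direction. Where at least 1 arm had an unadjusted p under 0.05 this held for 30 of 40, and in the 5 hairpins with both arms at that level the directions were equal in all 5. Across these hairpins, which are not independent replicates and share their libraries, Spearman's rho between the arms' log2 fold changes was 0.24.

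The P7 differences were set beside the earlier ages to ask when they appeared. The KO effect on miR-21a-5p was -0.08 at P1 and 0.10 at P3 on the log2 scale, neither of which passed, and no miRNA passed the adjusted threshold at either age by edgeR (59 at an unadjusted p under 0.05 at P1, 8.36%, and 64 at P3, 9.07%). Its level in KO kidneys was 3470.3 ± 181.9 CPM (SD, n = 3) at P1 and 4181 ± 689 at P3, against 3669 ± 220.6 and 3894 ± 859 in WT. The KO effect at P7 exceeded that at P1 by 1.53 (SE 0.23 and adjusted p = 0.00514), the single miRNA to pass in that test (0.142% of those tested), and it passed without any single library of P1 or P7, but not with library totals or a replicate block. It exceeded the effect at P3 by 1.35 (SE 0.23 and adjusted p = 0.0211), again the single one to pass, but this call was lost in 9 of 12 fits that left out 1 library (adjusted p up to 0.183), and with library totals, no count filter, a replicate block or only the compared libraries. At an unadjusted p under 0.05, 85 miRNAs (12%) differed in effect between P7 and P1 and 65 (9.21%) between P7 and P3.

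miR-183-5p and miR-182-5p followed a similar course without passing. The KO effect on miR-183-5p was 0.07 at P1, 0.31 at P3 and 1.28 at P7 on the log2 scale, a P7 minus P1 difference of 1.21 (adjusted p = 0.142). For miR-182-5p it was -0.22, 0.50 and 1.06, a P7 minus P1 difference of 1.28 (adjusted p = 0.142). Their levels, like those of miR-222-3p and miR-205-5p, did not overlap between KO and WT at P7 and overlapped at P1.

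Within KO kidneys, miR-21a-5p rose by 2.32 on the log2 scale from P1 to P7 (adjusted p = 2.07e-07), and within WT kidneys by 0.79 (adjusted p = 0.0042). These contrasts share their P7 libraries with the KO to WT comparison. miR-183-5p, miR-182-5p and miR-222-3p rose from P1 to P7 in KO (0.98, 1.05 and 1.21, with adjusted p values of 0.0044, 0.00506 and 0.000274), beside -0.23, -0.23 and 0.28 in WT, which did not pass. miR-205-5p fell by 2.52 on the log2 scale in KO (adjusted p = 0.00506), beside -0.77 in WT. In all, 121 miRNAs (17.1%) changed from P1 to P7 in KO and 152 (21.5%) in WT. With library totals the median of all miRNAs was -1.16 in the KO and -0.68 in the WT contrast, against -0.05 and -0.03 with TMM, and there miR-183-5p in KO was at -0.13, miR-182-5p at -0.07, miR-222-3p at 0.08 and miR-21a-5p at 1.18, of which the last alone still passed, while miR-21a-5p in WT was at 0.14 and did not pass. The 42 miRNAs higher at P7 at an unadjusted p under 0.05 had a median KO effect of 0.03 at P1 and -0.01 at P3, and the 30 lower ones 0.24 and -0.11. Both sets were picked by their P7 values, a choice that by itself favours smaller effects at other ages. The medians therefore cannot tell when the differences appeared.

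**Figure D4:**
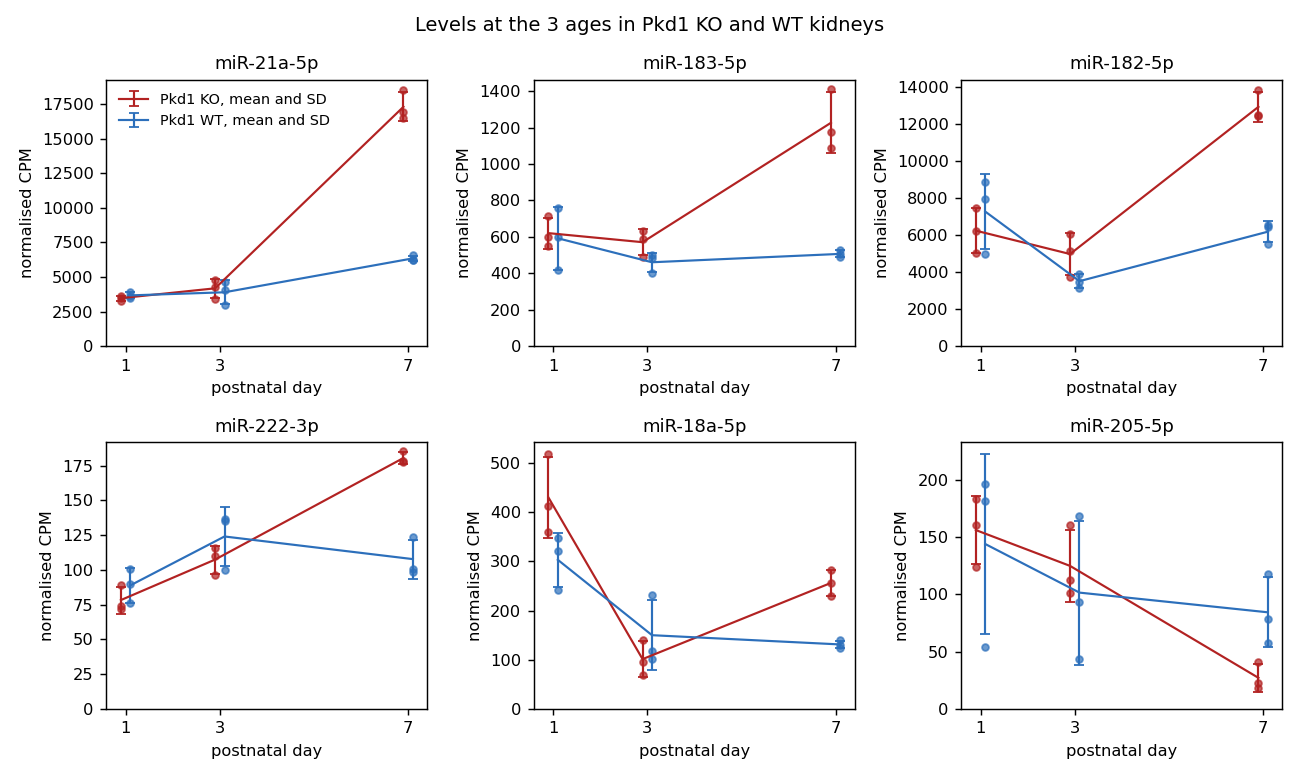
Normalised CPM of 6 miRNAs (y axis) against postnatal day in Pkd1 KO (red) and WT (blue) kidneys, with the 3 libraries of each group as points and lines through means with SD bars. miR-21a-5p overlaps between the groups on days 1 and 3 and not on day 7, and miR-205-5p in KO lies below WT on day 7.

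The Pkd2 model has its own KO and WT mice, so no library is shared with the Pkd1 comparison. At P7 it gave 94 called miRNAs (12.6%), among them the same 3. miR-21a-5p was at 10701, 23303 and 13781 CPM in Pkd2 KO and 7903, 6828 and 7336 in WT (log2 fold change 1.11, adjusted p = 0.0147), miR-183-5p had a log2 fold change of 1.04 (adjusted p = 0.0371) and miR-182-5p 1.38 (adjusted p = 0.0159). Each of these Pkd2 calls was lost without KO replicate 3, WT replicate 2 or WT replicate 3 of that model, the count of calls falling to 4, 11 and 11. The miR-183-5p call was also lost without KO replicate 2 or WT replicate 1, and so held in 1 of 6 such fits, and with library totals or the replicate block. The miR-21a-5p call was also lost with library totals. The difference between the models was 0.33 (SE 0.31 and adjusted p = 0.648) for miR-21a-5p, 0.24 (SE 0.39 and adjusted p = 0.822) for miR-183-5p and -0.31 (SE 0.41 and adjusted p = 0.761) for miR-182-5p, none of which passed.

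Of 695 miRNAs tested in both models, 392 had the same sign at P7 (56.4%). Of the 42 miRNAs higher in Pkd1 KO at an unadjusted p under 0.05, 41 were tested in the Pkd2 model, 32 had the same sign there and 17 an unadjusted p under 0.05 with it, beside 19.2% of all miRNAs tested there. Of the 30 lower ones, 23 had the same sign and 5 such a p, beside 9.79%. An unadjusted p under 0.05 with the opposite sign was met by 1 of the higher and 3 of the lower ones. Of the 14 lower ones past 2-fold, 7 had the same sign in Pkd2, 2 at that level, and 3 were opposite at that level. Of the 14 higher ones past 2-fold, 13 were tested there and 13 had the same sign. miR-653-5p was lower in both (log2 fold change -1.13 in Pkd2, adjusted p = 0.0147). miR-192-5p and miR-194-5p, which missed the threshold in Pkd1 KO, fell in Pkd2 KO by 1.13 and 0.95 (adjusted p = 0.0392 and 0.0147). The Pkd2 call of miR-192-5p was lost in 4 of 6 fits without 1 library and with library totals, the replicate block or only the compared libraries, and those of miR-194-5p and miR-653-5p in 3 of 6 and with library totals.

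miR-205-5p stood out by opposite signs. In the Pkd2 model it was at 657, 131 and 1126 CPM in KO and 135.7, 57.2 and 69.9 in WT (log2 fold change 2.87, adjusted p = 0.0175), with the lowest KO library below the highest WT library. That call was lost without KO replicate 3, WT replicate 2 or WT replicate 3 of that model, and so held in 3 of 6 such fits. In the Pkd1 model the lower level did not pass (adjusted p = 0.16). The KO effect on miR-205-5p in Pkd1 was lower than in Pkd2 by 4.51 on the log2 scale (difference -4.51, SE 0.94 and adjusted p = 0.0229). miR-205-3p (-4.50, adjusted p = 0.0259) and miR-3059-5p (-6.46, adjusted p = 0.0229) also passed, and these 3 (0.387% of 775) were the only ones by edgeR. Their calls held in 6, 3 and 5 of 12 fits that left out a library, and miR-3059-5p averaged 18.3 reads in the Pkd1 libraries at P7. The imprinted cluster from miR-379 to miR-410 had a median log2 fold change of 1.49 in Pkd2 KO. There 50 of 60 arms were higher at an unadjusted p under 0.05, beside 19.2% of all miRNAs tested in that model. In Pkd1 the median was 0.17 and 1 of 53 arms was higher at that level, beside 5.95%. These arms come from a cluster and share their libraries, so they are not independent observations. Between the models 9 of 61 arms differed at that level, beside 12% of all 775, and none passed the adjusted threshold.

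**Figure D5:**
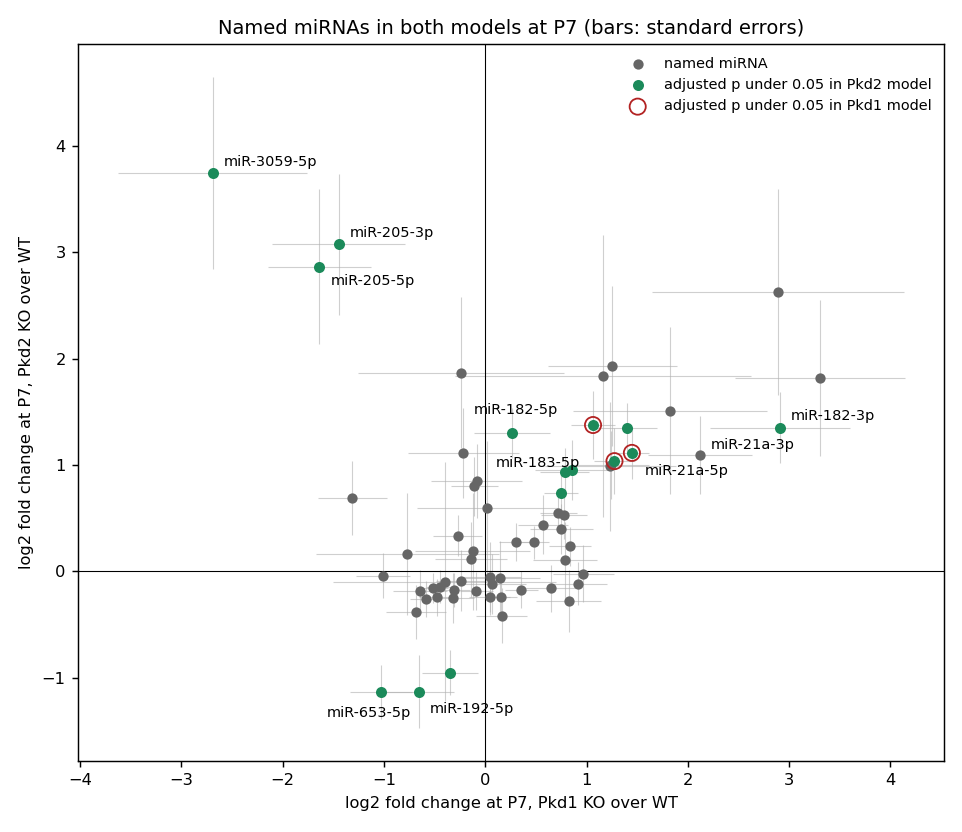
Log2 fold change at P7 in the Pkd1 model (x axis) against the Pkd2 model (y axis) for the named miRNAs, with standard errors as bars. Red rings mark the 3 miRNAs called in the Pkd1 model, all in the upper right, and miR-205-5p, miR-205-3p and miR-3059-5p lie in the upper left.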

How the data were processed

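Small RNA libraries were made from whole-kidney total RNA and sequenced on an Illumina HiSeq2000. The authors trimmed adaptors, kept reads longer than 17 bases and assigned them with miRDeep2 to miRBase 21 hairpins on mm10, and the submitters' processing notes also name CASAVA 1.8.2 and HTSeq. The deposited values are raw read counts per mature miRNA and hairpin, 2061 rows in all. For the 83 mature miRNAs on several rows, the row with the highest total over the 36 libraries was kept, since such copies share reads.

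Groups came from the sample labels. A miRNA was tested if it had at least 10 reads in at least 3 of the 18 Pkd1 libraries, and the reads left out were at most 0.00307% of a P7 library. A single edgeR 4.0.16 quasi-likelihood fit (TMM; R 4.3.3) over the 6 Pkd1 groups gave all contrasts. The 18 Pkd2 libraries (746 miRNAs) had a fit of their own, and a fit of all 36 (775) gave the difference between models. P-values were adjusted over all miRNAs of a fit by the method of Benjamini and Hochberg, and SE is the log2 fold change over the square root of F. DESeq2 1.42.0 and other settings were alternatives. In a single set of simulated P7 counts of 684 miRNAs, 74% of 4-fold and 24% of 2-fold increases were recovered. For decreases of the same sizes it was 69.6% and 16.3%, and 0 of 489 unchanged miRNAs were called. These counts were drawn at the trended dispersion around a mean pooled over the 18 libraries. They held no outlying library and no age differences, so the shares may not hold for the real data. A floor of 3 reads was 0.144 to 0.391 CPM at P7, and this limit covers counting error only. Replicate P7 libraries correlated at 0.980 to 0.990 (Pearson, log scale) and differed beyond counting noise. Nothing in the labels says which replicates were separate litters, so p-values measure the spread between libraries. That spread was pooled over all groups and ages of a fit, and was not that of the P7 libraries alone.

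The miRNAs named were all those with an adjusted p under 0.05 at P7, up to 12 in each direction with a 2-fold change, an unadjusted p under 0.05, a mean of at least 10 reads and no overlap, the other arms of these, for each of the 21 lists its most abundant member and those with an unadjusted p under 0.05, up to 3 for each test of a difference in effect, and the 5 most abundant. The members and lists were chosen with earlier results of these data known. Others are said to be named after their values were seen. Hairpin positions and sequences are from RefSeq on GRCm38.p6 (588 of 706 tested miRNAs matched), and overlapping genes from GENCODE M21.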

Additional observations from a re-analysis of the deposited data

Results flagged for a closer look

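The KO effect on miR-21a-5p differed between ages. It was larger at P7 than at P1 by 1.53 and larger than at P3 by 1.35 on the log2 scale (edgeR quasi-likelihood tests of the difference, adjusted p = 0.00514 and 0.0211), with all 3 KO libraries above all 3 WT libraries at P7. Without 1 library at a time, the difference from P1 ran from 1.48 to 1.57 and passed each time, and that from P3 ran from 1.196 to 1.52 and passed in 3 of 12 fits.

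The KO effect differed between the Pkd1 and Pkd2 models at P7 for 3 miRNAs, all lower in the Pkd1 model. The difference was -4.51 on the log2 scale for miR-205-5p, -4.50 for miR-205-3p and -6.46 for miR-3059-5p (adjusted p = 0.0229, 0.0259 and 0.0229). The arms of miR-205 come from the same hairpin. For miR-205-5p the range over fits without 1 library was -5.04 to -3.81, and the call was lost when any one of these libraries was left out: KO replicates 1 and 3 and WT replicate 3 of the Pkd1 model, KO replicate 3 and WT replicates 2 and 3 of the Pkd2 model.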

How the results depend on the processing

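At P7 the count of 3 calls became 16 with DESeq2, 0 with library totals and 20 with a covariate for the miR-10 share, and 2 to 8 without 1 library at a time, with 8 when WT replicate 3 was left out. miR-21a-5p and miR-183-5p were called under every setting tried except library totals, and miR-182-5p was also lost with median-ratio size factors, with no count filter and with the replicate block. The 28 miRNAs past 2-fold became 59 with no count filter and 13 with only the compared libraries fitted, and 25 to 41 without 1 library. The P7 minus P1 count of 1 became 5 with DESeq2, 0 with library totals and 0 with the replicate block, and 1 to 6 without 1 library, 6 being without P1 WT replicate 1. The P7 minus P3 count of 1 became 12 with DESeq2, 4 with the covariate, 2 with the replicate block (both lower, with miR-21a-5p no longer called), 0 with library totals, with no filter and with only the compared libraries, and 0 to 3 without 1 library. As a share of the miRNAs tested, the P1 to P7 calls went from 17.1% in KO to 27.2% with library totals, 38% with only the compared libraries and 6.66% to 12.4% without 1 library, and from 21.5% in WT to 34.8% with the covariate, 12.6% with the replicate block, 9.65% with only the compared libraries and 10.2% to 23% without 1 library. The Pkd2 calls went from 12.6% to 21% with DESeq2, 0.938% with library totals, 22.5% with the covariate, 9.09% with only the compared libraries and 0.538% (without KO replicate 3) to 19% without 1 library. The 3 calls between models became 7 with the covariate, 0 with the replicate block, 0 with only the compared libraries and 0 to 7. The cause of these shifts was not tested. The miR-10 share difference ran from -5.63 to 5.90 points without 1 library.

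With library totals the median of all miRNAs was -0.39 in the P7 minus P1 contrast and -0.20 in the P7 minus P3 contrast, against 0.09 and -0.08 with TMM. With the replicate block the P7 calls lost miR-182-5p and gained miR-183-3p. Same-numbered KO and WT libraries deviated with correlations of 0.52, 0.44 and 0.06 at P1, -0.32, 0.56 and 0.31 at P3 and -0.03, -0.43 and -0.49 at P7. As these were not all above 0.1, the numbers were not taken to pair the samples. The correlations cannot decide whether mice were paired, since libraries with different numbers also reached 0.46 at P7. Those were KO replicate 2 and WT replicate 3, which had the lowest miR-10 share of their groups (67.9% and 57.9%).

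Of 65 named miRNAs, 55 kept the direction of their P7 log2 fold change under every setting. miR-10b-5p turned to -0.0124 with DESeq2 and with median-ratio factors, to -0.00986 with the covariate and to -0.0154 with only the compared libraries. miR-122-5p turned to -0.84 with the replicate block, miR-143-3p to -0.12, miR-146b-5p to -0.0535 and miR-181a-5p to -0.0645 with library totals, miR-146b-5p to -0.00152 with the covariate, and miR-92a-3p to 0.0906 with the lowest hairpin row. Without 1 library, the log2 fold change ran from -0.52 to 0.11 for miR-10a-5p, -0.38 to 0.24 for miR-10b-5p, -4.16 to 2.92 for miR-122-5p, -0.14 to 0.38 for miR-143-3p, -0.14 to 0.27 for miR-146b-5p, -0.0236 to 0.12 for miR-181a-5p, -0.15 to 0.0381 for miR-411-5p, -0.46 to 0.0526 for miR-450b-5p, -0.14 to 0.37 for miR-677-5p and -0.23 to 0.00389 for miR-92a-3p. With 3 libraries a group, 2-fold changes were recovered in a minority of simulated cases, so a miRNA that missed the threshold is not shown to be level.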
